A study of Mus musculus with 29 samples.

Results

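The comparison described here sets macrophages given interleukin-10 (IL-10) against macrophages given no added cytokine. It takes 6 of the 29 arrays of a series on cytokine-treated mouse macrophages: IL-10 replicates 1 to 3 and unstimulated replicates 6 to 8, chosen by their titles. The cells were grown from bone marrow of wild-type C57BL/6 mice of 8 weeks. All 6 cultures received CSF-1 at 10 ng/ml, the growth factor that turns marrow progenitors into macrophages, for 7 days in Teflon bags and again during the last 24 h. In those 24 h the IL-10 cultures also received IL-10 at 10 ng/ml, and the unstimulated cultures received CSF-1 alone. The labels give neither the sex of the mice nor whether arrays came from separate animals or cultures, so the p-values measure spread between arrays, which may be technical. That spread was pooled over all 29 arrays of the series, not taken from the 6 compared alone. Unstimulated replicates 6 to 8 are listed beside the IL-10 arrays and the other 5 unstimulated arrays beside other groups. The labels do not state that replicates 6 to 8 are the controls of IL-10, so where a call stated for a gene against replicates 6 to 8 changes with all 8 unstimulated arrays as controls, that value is given too.

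IL-10 binds a receptor of 2 chains, IL-10RA and IL-10RB, which activates the kinases JAK1 and TYK2 and through them the transcription factor STAT3. In macrophages it is known for restraining the cytokine output that microbial products trigger, largely through genes that STAT3 switches on. No microbial product was among the treatments here, so the values describe what IL-10 does to resting, CSF-1-grown cells. These are bulk RNA samples, in which fewer cells of a kind and less RNA per cell cannot be told apart.

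All 18 measured macrophage markers, among them Csf1r, Adgre1, Cd68 and Lyz2, had mean levels above the median of all array values (log2 6.99), which serves here as the level under which background may limit a value. None of 17 measured fibroblast and stromal markers did, and 3 of 17 B-lineage, 3 of 17 T and NK cell, 10 of 16 neutrophil and 3 of 13 dendritic cell markers did. The Actb 3' minus 5' control difference, a sign of RNA quality, ran from 0.310 to 0.363 log2 on the IL-10 arrays and from 0.366 to 0.504 on the unstimulated arrays, so the groups did not overlap. The same difference of the Gapdh control ran from -0.039 to -0.021 on the IL-10 arrays and from -0.109 to -0.014 on the unstimulated arrays, which overlapped. The part of these differences in the results was not tested. Correlations between arrays over the tested genes were 0.991 to 0.994 within a group and 0.9703 to 0.9811 between the groups.

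With IL-10, 2017 of 7154 tested genes (28.2%) were called changed, of which 880 rose (12.3%) and 1137 fell (15.9%). Both group means lay under log2 6.99 in 47 of the 2017, which are counted here but not read as changes. A further 107 had 1 group mean under that level. A gene is called changed at an adjusted p under 0.05 in limma's moderated two-sided test, with Benjamini-Hochberg adjustment over all tested genes. All differences below are log2, IL-10 minus unstimulated, with their standard error (SE), and a fold is given only where both group means lie above log2 6.99. Most changes were small, with a median absolute difference of 0.32 among called genes and a median difference of -0.02 over all genes. The large changes went mostly upward, since 85 genes rose by at least 1 (1.19%) and 34 fell by at least 1 (0.475%). At least 2 on the log2 scale was reached by 18 increases and by 1 decrease. The values of the groups did not overlap in 33.9% of all tested genes, and in 1761 of the 2017 called ones. With all 8 unstimulated arrays as controls 2704 genes were called, and 1745 of the 2017 were among them in the same direction. The called genes named by rule had 127 further probe sets, of which 108 were called the same way, 0 the opposite way and 19 were not called. Those not called include further probe sets of the genes Ccnd1, Shmt2, Mitf, Gstm1, C1qb, Ctsz, Scd1 and Vegfa, described below by 1 probe set each.

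**Figure D1:**
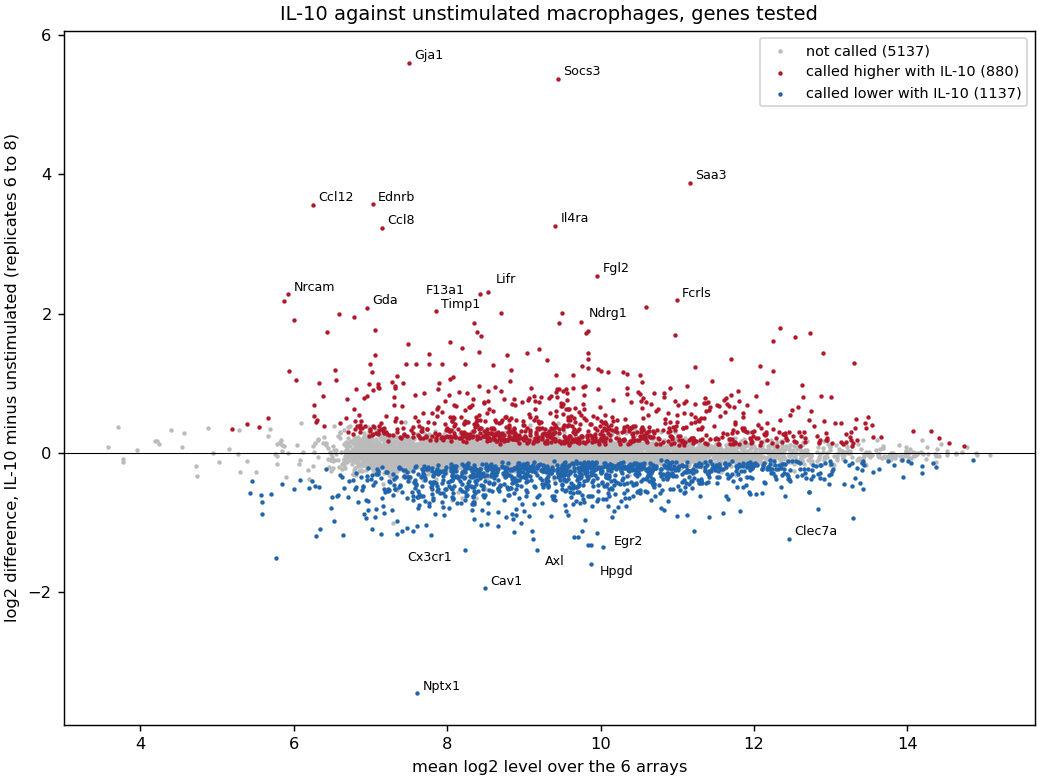
Each point is a tested gene, with its mean log2 level over the 6 arrays on the horizontal axis and the log2 difference, IL-10 minus unstimulated, on the vertical axis; red points are the 880 genes called higher, blue points the 1137 called lower and grey points the rest. The farthest points are on the upper side (Gja1 at 5.60 and Socs3 at 5.38), and Nptx1 at -3.45 is the farthest on the lower side.

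The gene for the STAT3-induced feedback inhibitor Socs3 had the highest ratio of change to error of the leading genes. Its log2 level was 11.82, 12.22 and 12.36 on the IL-10 arrays, against 6.99, 6.60 and 6.66 on the unstimulated arrays. All 3 IL-10 arrays were far above all 3 unstimulated arrays, whose mean lies just under the background level, so the difference of 5.38 ± 0.125 (adjusted p = 8.17e-22) is given without a fold. Gja1, which encodes a connexin of gap junctions, had 9.98, 10.38 and 10.54 with IL-10 and 4.64, 4.61 and 4.83 without, again with a wide gap between the groups. Its difference was 5.60 ± 0.190 (adjusted p = 6.08e-18). Stat3 itself rose 2.19-fold, averaging 10.92 ± 0.097 on the IL-10 arrays and 9.78 ± 0.0978 on the unstimulated arrays (SD, n = 3 each), which did not overlap.

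The proximal promoter of Socs3 is shown because STAT factors are known to bind the palindrome TTCNNNGAA, and because Socs3 is the feedback gene of this pathway. The promoters of Fgl2 and Zfp36 are shown beside it as the other named, raised genes whose promoter held these letters, among 25 genes searched that had a promoter in the table. The sequences are RefSeq's, build GRCm38.p6, from 250 bases before to 50 bases after the gene start, 5′ to 3′ on the gene's strand, with the matched letters in capitals. Socs3 lies on the minus strand at chr11:117969317-117969616, Fgl2 on the plus strand at chr5:21372423-21372722 and Zfp36 on the minus strand at chr7:28379179-28379478.
Socs3: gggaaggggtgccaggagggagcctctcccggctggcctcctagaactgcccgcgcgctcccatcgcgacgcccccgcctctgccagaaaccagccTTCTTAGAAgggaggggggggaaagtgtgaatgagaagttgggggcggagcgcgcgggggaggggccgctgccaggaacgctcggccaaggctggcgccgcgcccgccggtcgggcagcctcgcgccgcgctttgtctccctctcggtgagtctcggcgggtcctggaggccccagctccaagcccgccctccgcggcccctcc
Fgl2: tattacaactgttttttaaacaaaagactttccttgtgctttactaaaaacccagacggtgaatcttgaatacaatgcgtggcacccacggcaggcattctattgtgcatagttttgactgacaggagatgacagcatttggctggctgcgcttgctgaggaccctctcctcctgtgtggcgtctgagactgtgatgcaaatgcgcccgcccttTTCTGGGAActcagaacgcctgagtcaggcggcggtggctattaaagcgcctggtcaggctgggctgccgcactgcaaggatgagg
Zfp36: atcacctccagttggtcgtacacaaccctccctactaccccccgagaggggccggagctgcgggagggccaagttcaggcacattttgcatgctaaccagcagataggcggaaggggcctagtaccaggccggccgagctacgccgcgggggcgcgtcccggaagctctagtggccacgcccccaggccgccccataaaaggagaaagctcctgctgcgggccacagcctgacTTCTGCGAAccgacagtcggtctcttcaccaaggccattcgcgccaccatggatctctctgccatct
The match begins 154 bases before the gene start in Socs3 (TTCTTAGAA), 36 before it in Fgl2 (TTCTGGGAA) and 17 before it in Zfp36 (TTCTGCGAA). The motif reads the same on both strands, so 1 search covers both. It stood in 8.3% of all promoters in the table, in 6.56% of those of tested genes, in 7.78% of those of genes called higher, in 5.73% of those of genes called lower and in 11.7% (11 of 94) of those of genes that rose by at least 1. These are counts of letters, and a match is neither a bound site nor a cause.

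Of 35 tested components of the IL-10 receptor and JAK-STAT pathway, 15 rose and 1 fell, with a median difference of 0.16 against -0.02 over all genes. Over all tested genes 12.3% were called higher and 15.9% lower, the shares to set beside this and each later list count. The receptor chains and their kinases were not among the called components. Il10ra had 8.98, 9.23 and 9.02 with IL-10 and 9.11, 9.18 and 9.01 without (-0.02 ± 0.114), and Il10rb stood at 12.2 in both groups. Jak1 (0.15 ± 0.0787) and Tyk2 (-0.09 ± 0.0728) did not pass the test, although Jak1 was called lower against unstimulated replicates 1 to 5 (-0.25, adjusted p = 0.00458). Il4ra, the signalling chain of the IL-4 receptor, rose 9.58-fold, with 10.89, 11.22 and 10.996 with IL-10 and 7.66, 7.95 and 7.71 without. Ptpn1, a phosphatase that acts on JAK kinases, rose 2.04-fold, and Il21r (1.28 ± 0.125) and the kinase Jak3 (0.92 ± 0.0927) were called higher with unstimulated means under the background level. Lifr, the receptor for leukaemia inhibitory factor, rose 4.97-fold. Csf2ra, the GM-CSF receptor chain and the 1 component that fell, was at -0.41.

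Most tested regulators linked to IL-10 action in macrophages rose. Of 29 tested, 22 rose and 2 fell, with a median of 0.65. The members were chosen with earlier results of these data known, so the count describes this list and tests nothing. Nfil3, a leucine zipper repressor, had 9.11, 9.44 and 9.32 with IL-10 and 7.43, 7.46 and 7.37 without, a 3.66-fold rise. Bcl3, an atypical IκB protein that restrains NF-κB target genes, had 9.61, 9.87 and 9.81 with IL-10 and 8.31, 8.45 and 8.23 without, a 2.70-fold rise. In both, every IL-10 array lay above every unstimulated array. Ier3, an early-response survival gene, rose 3.64-fold. Etv3, an Ets-family repressor, rose 1.81-fold, and Zfp36, which promotes decay of cytokine mRNAs, 1.62-fold. Arid5a, an RNA-binding protein, was higher by 1.77 (adjusted p = 1.94e-13), with an unstimulated mean under the background level. Il10 itself had 7.93, 8.00 and 7.86 with IL-10 and 6.91, 7.06 and 6.81 without (0.999 ± 0.116), with the unstimulated values at the background level. Il1rn, the IL-1 receptor antagonist, was higher against replicates 6 to 8 (0.65 ± 0.128) but not against all 8 unstimulated arrays (0.25, adjusted p = 0.213). The 2 that fell, named after their values were seen, were Slc11a1 (-0.34), a phagosomal metal transporter, and Tnip1 (-0.33), an NF-κB inhibitor.

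Genes of the inflammatory mediator list, which also holds receptors and signalling genes, did not fall as a group in these resting cells. Of 24 tested, 11 rose and 1 fell, with a median of 0.23. Il1b, the precursor of IL-1β, had 9.18, 10.15 and 9.78 with IL-10 and 7.83, 7.64 and 7.63 without, a 4.01-fold rise in which the IL-10 arrays were spread more widely than the unstimulated ones. Tnf, which encodes tumour necrosis factor, was the 1 that fell, to 8.16, 8.04 and 8.03 with IL-10 against 8.58, 8.61 and 8.52 without (-0.50 ± 0.0740, 1.41-fold lower), and the groups did not overlap. Cd40, a costimulatory receptor, rose 2.42-fold, the inflammatory caspase Casp4 2.16-fold, and the Toll-receptor adaptor Myd88 by 0.96 ± 0.0667. Nfkb2 (0.22 ± 0.106) and Il18 (0.26 ± 0.111) did not pass the test against replicates 6 to 8. With all 8 unstimulated arrays as controls both were called higher (0.30, adjusted p = 0.00962 for Nfkb2, and 0.42, adjusted p = 0.0017 for Il18), and 16 of the 24 genes of the list rose and 2 fell.

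Acute-phase and neutrophil-type secreted proteins were led by Saa3, a serum amyloid A protein made by macrophages. Its level was 12.73, 13.39 and 13.19 with IL-10 and 9.37, 8.89 and 9.42 without, a 14.7-fold rise (3.88 ± 0.273, adjusted p = 1.34e-11). The lowest IL-10 array lay more than 3 log2 units above the highest unstimulated array. Of the 12 tested genes of this list, 6 rose and 0 fell. Those that rose beside Saa3 were Fgl2, a fibrinogen-like protein (5.83-fold), Timp1, an inhibitor of matrix proteases (2.03 ± 0.123), and the haemoglobin-binding haptoglobin Hp (1.41 ± 0.183). The others were the copper protein ceruloplasmin Cp (1.27 ± 0.183) and Fpr2 (1.05 ± 0.140), a formyl peptide receptor that the list holds beside secreted proteins. The granule proteins S100a8 (0.08 ± 0.156) and Ltf (0.08 ± 0.206) did not pass the test. The log2 of the summed level of the neutrophil markers ran from 13.435 to 13.905 on the IL-10 arrays and from 13.364 to 13.865 on the unstimulated arrays, with the highest score on IL-10 replicate 2 (0.36) and unstimulated replicate 7 (0.28).

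**Figure D2:**
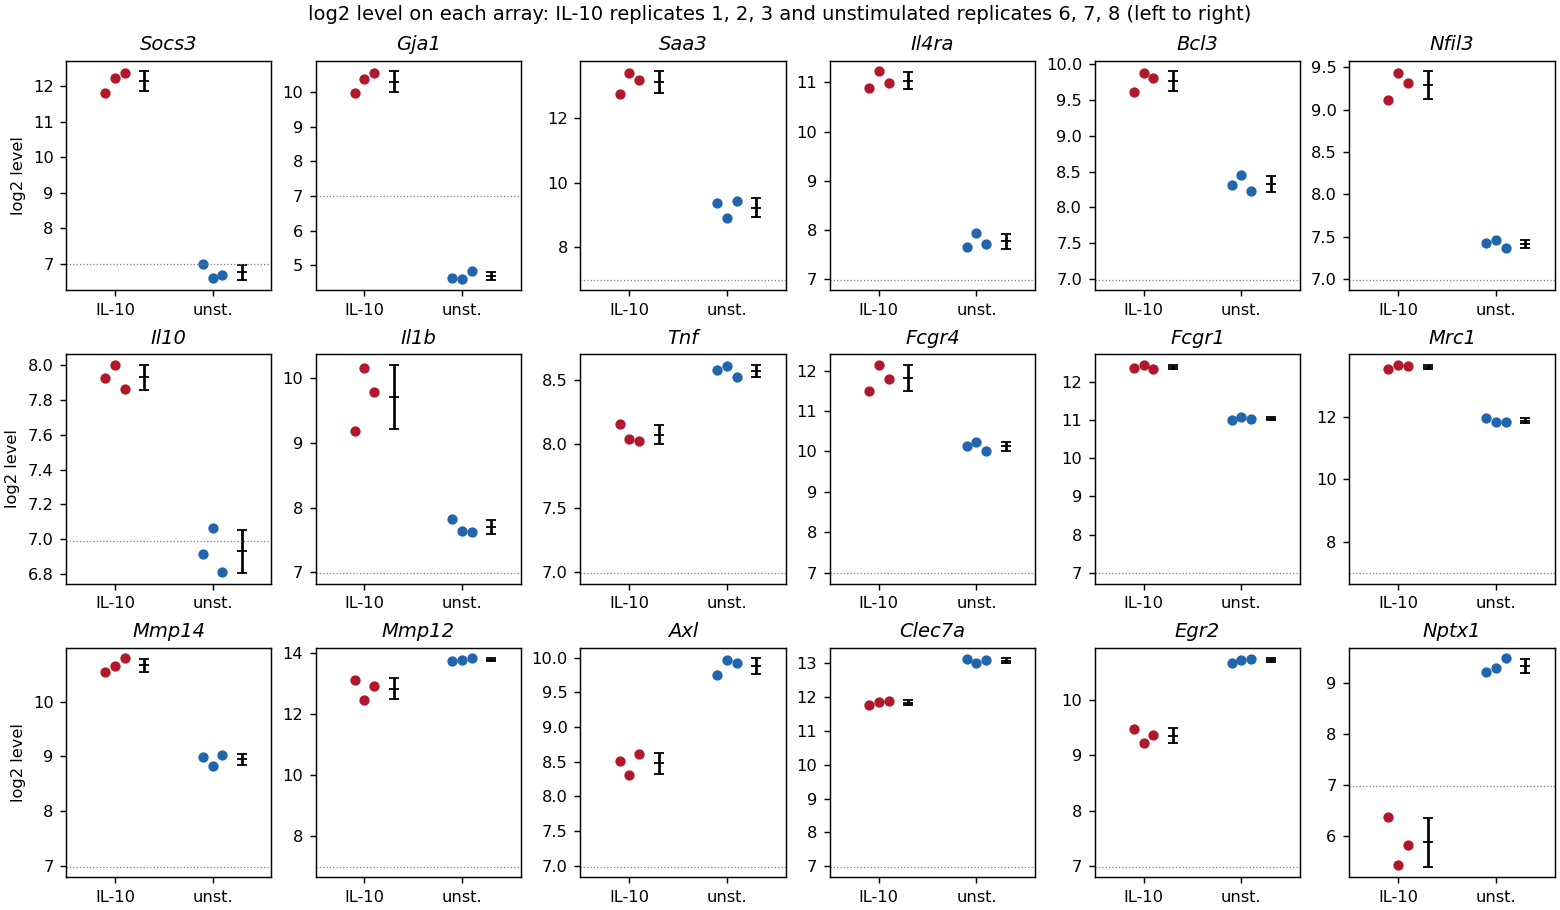
The log2 level of 18 named genes on each array, with IL-10 replicates 1, 2 and 3 in red on the left of each panel and unstimulated replicates 6, 7 and 8 in blue on the right; black bars are the group mean ± SD and the dotted line is the level of 6.99. In every panel the groups are apart, with Tnf, Mmp12, Axl, Clec7a, Egr2 and Nptx1 lower with IL-10 and the other 12 genes higher. Each panel has its own vertical range.

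Chemokines and their receptors moved in both directions. Of 19 tested chemokines 9 rose and 1 fell (3 fell with all 8 unstimulated arrays as controls), with a median of 0.33. The monocyte attractants Ccl12 (7.88, 8.26 and 7.96 with IL-10, 4.08, 4.90 and 4.43 without) and Ccl8 (8.27, 9.12 and 8.92 with IL-10, 5.86, 5.11 and 5.62 without) showed no overlap, and both unstimulated groups lay under the background level. Ccl4 rose 2.27-fold and Pf4, a chemokine best known from platelets, 2.26-fold. Ccl2 had 9.61, 8.90 and 8.58 with IL-10 and 7.91, 9.11 and 8.49 without, groups that overlapped (0.53 ± 0.216, adjusted p = 0.0700). Of 15 tested receptors for chemokines and other attractants 8 rose and 3 fell. Ccr1, a receptor for inflammatory chemokines, rose 3.68-fold (10.56, 10.79 and 10.68 with IL-10, 8.88, 8.84 and 8.68 without). Ccr2, the receptor for Ccl2, rose by 0.80 ± 0.127. Cx3cr1, the fractalkine receptor, fell to 7.64, 7.43 and 7.53 with IL-10 against 8.82, 9.29 and 8.67 without (2.63-fold lower).

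Receptors for antibody had the highest median difference of the 34 pathway lists. Of 7 tested Fc receptors 5 rose and 0 fell, with a median of 0.76. Fcgr4, an activating receptor, had 11.50, 12.14 and 11.79 with IL-10 and 10.13, 10.23 and 10.00 without (3.22-fold). The high-affinity IgG receptor Fcgr1 had 12.37, 12.44 and 12.32 with IL-10 and 10.99, 11.08 and 11.02 without (2.54-fold). The inhibitory receptor Fcgr2b had 12.72, 13.29 and 13.15 with IL-10 and 11.59, 11.40 and 11.35 without (3.05-fold). In these 3 the groups were clearly apart, whereas Fcgr3 rose 1.32-fold and the shared signalling chain Fcer1g (0.10 ± 0.0442) was not called against replicates 6 to 8 but was with all 8 unstimulated arrays (0.10, adjusted p = 0.0305). The neonatal receptor Fcgrt rose by 0.76 ± 0.164. Probe sets of these related genes may share sequence, which was not tested. Fcrls, an Fc receptor-like scavenger receptor, rose 4.57-fold.

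Uptake receptors did not share a direction. Of 27 tested scavenger and efferocytosis genes 7 rose and 5 fell, with a median of 0.06. The mannose receptor Mrc1 had 13.52, 13.64 and 13.61 with IL-10 and 11.95, 11.84 and 11.83 without, a 3.29-fold rise. Cd5l, a secreted scavenger receptor protein of macrophages, rose 3.47-fold. The bridging ligands Pros1 (2.31-fold) and Gas6 (0.93 ± 0.111), which link dying cells to TAM receptors, rose. Their receptor Axl fell to 8.51, 8.31 and 8.60 with IL-10 against 9.75, 9.96 and 9.92 without (2.64-fold lower), while the related receptor Mertk was at 0.30 ± 0.120 (adjusted p = 0.0655), and was called higher with all 8 unstimulated arrays (0.26, adjusted p = 0.0395). Clec7a, the β-glucan receptor dectin-1, fell to 11.76, 11.86 and 11.90 with IL-10 against 13.13, 12.997 and 13.11 without (2.36-fold lower). Neither Axl nor Clec7a had overlapping groups. The fatty acid transporter Cd36 fell by 0.47. Of the paired and inhibitory receptors 8 of 21 rose and 5 fell, led upward by Cd244a (1.94 ± 0.109), and Havcr2, which encodes TIM-3, was at -1.09 ± 0.192 with an IL-10 mean under the background level. Cd163, a haemoglobin scavenger receptor often used as an IL-10 marker, was under the background level in both groups (-0.33 ± 0.152, adjusted p = 0.106).

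Of 13 tested complement genes 7 rose and 2 fell. The C1q chains C1qa (0.52 ± 0.0708), C1qb (0.31 ± 0.0419) and C1qc (0.36 ± 0.0651) rose. The integrin chain Itgam of complement receptor 3 rose by 0.72 ± 0.0625, while Itgax of complement receptor 4 fell by 0.79 and the shared chain Itgb2 by 0.36. Antigen presentation genes moved little, with 1 of 18 tested MHC class II and costimulation genes called higher (Cd40) and 1 lower (Cd83, -0.23). With all 8 unstimulated arrays as controls 1 was higher and 3 lower, with a median of -0.16 in place of 0.04, and Cd83 was not called against replicates 1 to 5 (-0.16, adjusted p = 0.0734).

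Most genes of cholesterol synthesis rose, by small amounts. Of 22 tested genes of cholesterol synthesis and uptake 17 rose and 0 fell, with a median of 0.35, and the list score was 0.41, 0.34 and 0.33 on the IL-10 arrays against -0.03, 0.05 and -0.02 on the unstimulated arrays. A list score is the median over the list of each gene's level minus its unstimulated mean. Pmvk, phosphomevalonate kinase, rose 1.90-fold (9.44, 9.65 and 9.58 with IL-10, 8.58, 8.70 and 8.61 without). The farnesyl diphosphate synthase Fdps rose 1.72-fold, and Mvd, mevalonate decarboxylase, by 0.67 ± 0.0794. The synthase gene Hmgcs1 (0.29 ± 0.117, adjusted p = 0.0599) and the mevalonate kinase gene Mvk (0.19 ± 0.0832) did not pass the test against replicates 6 to 8. Both were called higher with all 8 unstimulated arrays (0.38, adjusted p = 0.00283, and 0.22, adjusted p = 0.0109), and so were the 3 further probe sets of Hmgcs1 (0.30 to 0.39) and the 1 of Mvk (0.32, under the background level). The sterol regulatory element, searched in 1 spelling on both strands, stood in 0 of the 16 promoters found for 13 of these 17 genes and in 0.234% of all promoters. With so rare a spelling, 16 promoters are too few for the 0 to say anything about these genes. Among 17 fatty acid synthesis genes 6 rose and 2 fell, with Fasn, fatty acid synthase, at 0.40 ± 0.0713. The desaturase Scd1 was called (0.41 ± 0.126) but stood at 0.00 against all 8 unstimulated arrays (adjusted p = 0.992).

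Chaperones and folding enzymes of the endoplasmic reticulum rose too. Of 48 tested genes of the XBP1 and ATF6 branch of the unfolded protein response 28 rose and 0 fell, with a median of 0.19. Fitted on the 6 arrays alone, 16 rose. The trophic factor Manf rose 1.66-fold (11.86, 11.69 and 11.76 with IL-10, 10.86, 11.10 and 11.14 without). Sdf2l1 (0.69 ± 0.0539) and the disulfide isomerases Pdia4 (0.68 ± 0.0675) and Pdia6 (0.67 ± 0.0527) followed, with no overlap between the groups in any of the 4. Hspa5, the chaperone BiP, rose 1.35-fold, and the transcription factor Xbp1 by 0.26 ± 0.0538. The stress sensor Ern1 did not pass the filter on low levels (6.53 with IL-10, 6.45 without). In the PERK-ATF4 branch 4 of 20 tested genes rose and 3 fell, beside 12.3% and 15.9% of all tested genes. The 3 that fell were Atf3, Psat1 and Shmt2. With all 8 unstimulated arrays 7 rose and 2 fell, and Shmt2 (-0.28 ± 0.101) was not called (-0.19, adjusted p = 0.0845).

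Cathepsins showed no common direction. Of 16 tested cathepsins and cystatins 6 rose and 4 fell, with a median of 0.02. Ctsc, which activates granule serine proteases, had 13.79, 14.06 and 14.02 with IL-10 and 12.89, 12.57 and 12.52 without (2.45-fold). The legumain gene Lgmn rose 1.41-fold and Cst7, which encodes cystatin F, by 0.77 ± 0.0872. The abundant Ctsl (0.21 ± 0.0398) and Ctsb (0.13 ± 0.0303) were called, Ctss (0.03 ± 0.0367) was not, and Ctsk (-0.44 ± 0.0968) fell. Ctsz (-0.12 ± 0.0410) was called at an adjusted p of 0.0328 and lost the call under quantile normalization (0.153). Ctsb was not called on the 6 arrays alone (adjusted p = 0.182) or against replicates 1 to 5 (0.214). Its further probe sets were called higher against replicates 6 to 8, by 0.43, 0.39 and 0.23. Among 39 tested lysosomal genes 3 rose and 11 fell (17 fell with all 8 unstimulated arrays), with a median of -0.06. Lower were the lysosomal regulators Tfeb (-0.34 ± 0.0575) and Mitf (-0.35 ± 0.0440), the acid lipase Lipa (-0.38 ± 0.0397) and the proton pump subunit Atp6v1b2 (-0.29 ± 0.0552), and the palmitoyl thioesterase Ppt1 was higher (0.75 ± 0.0738).

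**Figure D3:**
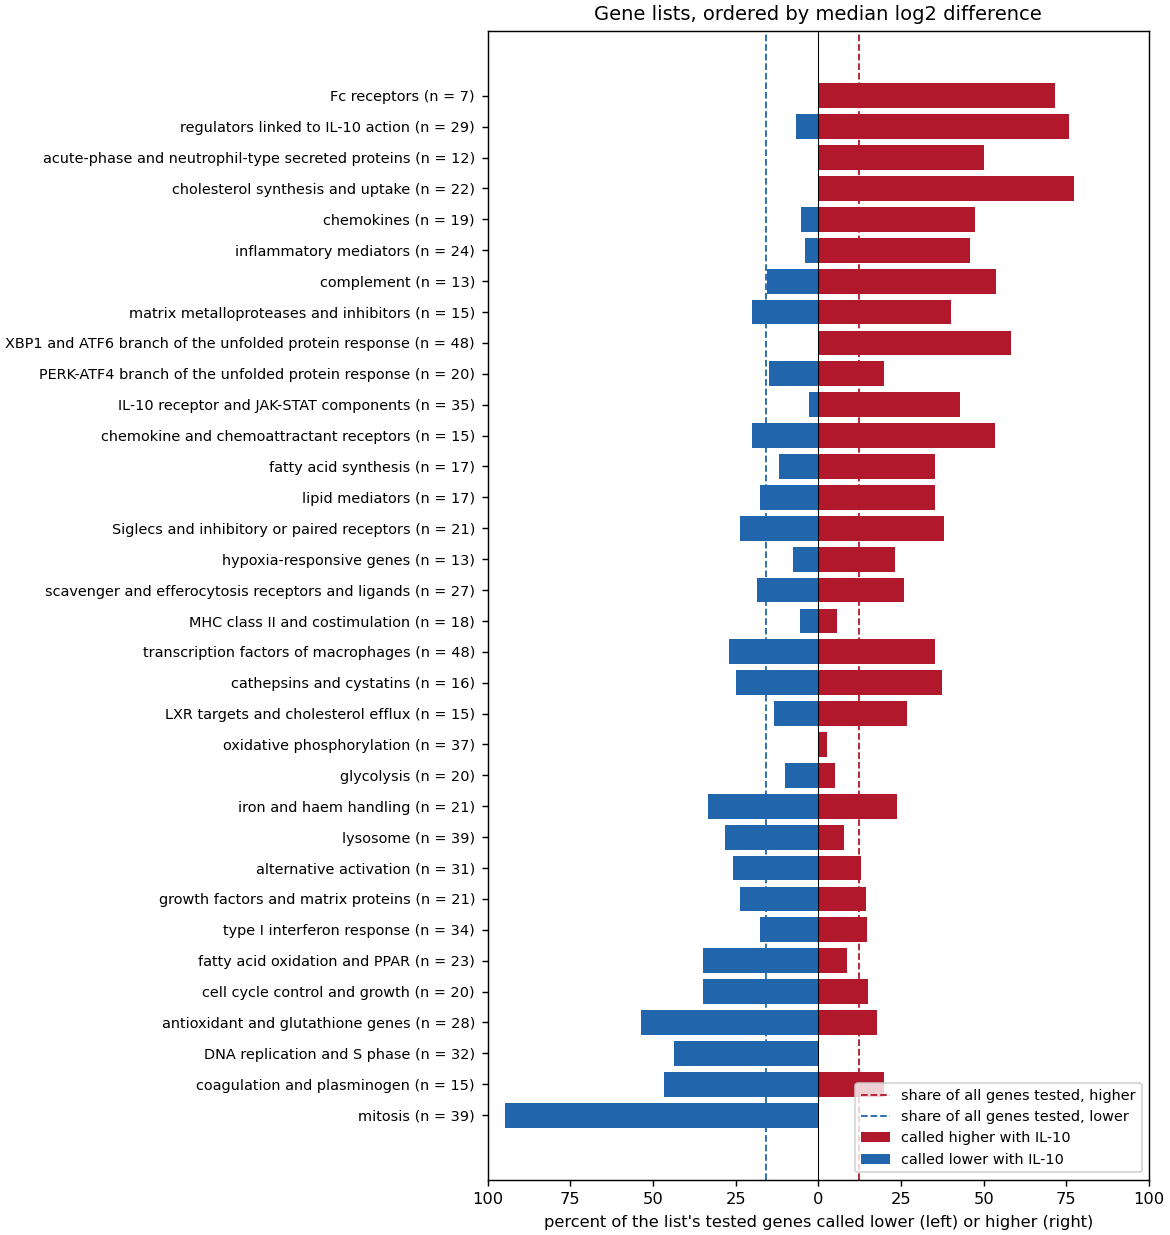
For each of 34 pathway lists, the percent of its tested genes called higher with IL-10 (red, right) and lower (blue, left), with the number tested after its name; dashed lines are the shares of all tested genes called higher (12.3%) and lower (15.9%). Lists are ordered by their median difference, from Fc receptors at the top (0.76) to mitosis at the bottom (-0.50).

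Cell-division lists scored lower on IL-10 replicates 2 and 3, and on replicate 1 by little or not at all. Of 39 tested mitosis genes 0 rose and 37 fell, with a median of -0.50, and in 20 of the 39 the IL-10 arrays lay below all unstimulated arrays, as they did in 18.8% of all tested genes. The list score was -0.10, -0.71 and -0.71 on IL-10 replicates 1, 2 and 3, against -0.02, 0.09 and -0.05 on unstimulated replicates 6, 7 and 8. IL-10 replicate 1 thus lay just below the unstimulated arrays, and the other 2 far below them. Kif23, a motor protein of cell division, had 9.09, 8.30 and 8.39 with IL-10 and 9.43, 9.46 and 9.37 without. Cdc20, an activator of the anaphase-promoting complex, had 9.76, 9.16 and 9.19 with IL-10 and 10.13, 10.17 and 9.96 without. Of 32 DNA replication genes 0 rose and 14 fell, with scores of 0.02, -0.46 and -0.44 with IL-10 and -0.09, 0.09 and 0.03 without. For this list IL-10 replicate 1 lay within the range of the unstimulated arrays. In 3 of the 32 genes the IL-10 arrays lay below all unstimulated arrays, a smaller share than the 18.8% of all tested genes. Without IL-10 replicate 1, 27 replication genes were called lower, and 38 mitosis genes. Without replicate 2, 4 and 24 were, without replicate 3, 7 and 28, and without unstimulated replicate 7, 7 and 29. On the 6 arrays alone the counts were 3 and 15. Myc fell by 0.47. The cyclin Ccnd1 was called against replicates 6 to 8 (-0.44, adjusted p = 0.0306) but not with all 8 unstimulated arrays (-0.25, adjusted p = 0.158). The cell cycle inhibitor Cdkn1c stood at -0.98 ± 0.170 with an IL-10 mean under the background level.

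**Figure D4:**
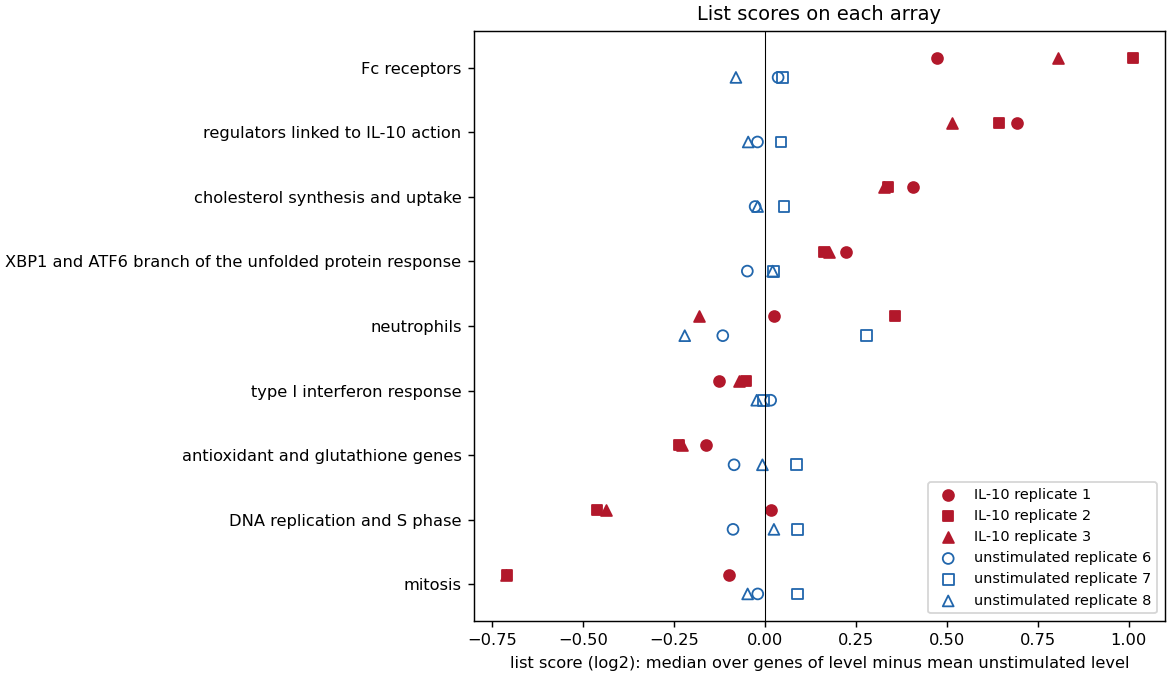
List scores on each array (horizontal axis, log2) for 9 gene lists, with filled red symbols for IL-10 replicates 1 to 3 and open blue symbols for unstimulated replicates 6 to 8. For the mitosis list, IL-10 replicates 2 and 3 lie at -0.71 and replicate 1 at -0.10, near the unstimulated arrays. Neutrophil markers have their highest scores on IL-10 replicate 2 and unstimulated replicate 7.

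More antioxidant and glutathione genes fell than rose. Of 28 tested, 5 rose and 15 fell, with a median of -0.21. The glutathione transferase Gstm1 fell to 9.14, 9.30 and 9.06 with IL-10 against 9.80, 10.04 and 9.90 without (1.68-fold lower). Srxn1, sulfiredoxin, stood at -0.73 ± 0.0751, and the extracellular peroxidase Gpx3 stood at -1.04 ± 0.163. Gclc, Gclm and Txnrd1, the subunits of glutathione synthesis and thioredoxin reductase, were called lower at -0.63, -0.47 and -0.52, of which Gclm was not called with all 8 unstimulated arrays (-0.18, adjusted p = 0.171). They and Mt1 fall outside the rule for named genes, and were picked with their values in view. The 5 that rose included the metallothioneins Mt2 (2.54-fold) and Mt1 (0.47), mitochondrial superoxide dismutase Sod2 (1.59-fold) and haem oxygenase Hmox1 (0.52 ± 0.0896). Hmox1 was not called against all 8 unstimulated arrays (0.25, adjusted p = 0.0674). Iron genes also split, with 5 of 21 higher and 7 lower, beside 12.3% and 15.9% of all tested genes. The iron exporter ferroportin Slc40a1 fell 1.79-fold (9.51, 10.05 and 9.71 with IL-10, 10.63, 10.58 and 10.57 without), and Hfe, a regulator of iron uptake, rose by 0.78 ± 0.0861.

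Genes of proteases, clotting factors and other extracellular proteins were called in both directions. Nptx1, a neuronal pentraxin, fell to 6.38, 5.44 and 5.83 with IL-10 against 9.22, 9.30 and 9.49 without (-3.45 ± 0.230, adjusted p = 4.62e-12), with an IL-10 mean under the background level. The membrane protease Mmp14 rose 3.28-fold (10.55, 10.65 and 10.79 with IL-10, 8.99, 8.83 and 9.03 without), whereas the macrophage elastase Mmp12 fell to 13.11, 12.46 and 12.90 with IL-10 against 13.73, 13.75 and 13.82 without (1.92-fold lower). Among 15 tested coagulation and plasminogen genes 3 rose and 7 fell, with F13a1, the A chain of factor XIII, up 4.85-fold. Its values were 8.90, 9.74 and 10.05 with IL-10 and 6.95, 7.14 and 7.77 without, 2 groups that did not overlap although each was spread by about 1 log2 unit. Urokinase Plau (2.32-fold lower) and its receptor Plaur (-0.91 ± 0.0927) fell together. The matrix protein Tgfbi rose 2.70-fold, and the growth factor Pdgfc was higher by 1.57 ± 0.169. Fibronectin Fn1 was called against replicates 6 to 8 (1.27 ± 0.140) but not against all 8 unstimulated arrays (0.49, adjusted p = 0.124). The angiogenic factor Vegfa fell 2.28-fold, and a further probe set of it was not called (-0.17).

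The remaining large changes were in genes of several kinds. Ednrb, the endothelin B receptor, had 8.94, 8.76 and 8.75 with IL-10 and 4.98, 5.40 and 5.36 without (3.57 ± 0.251), groups far apart with the unstimulated one under the background level. Ndrg1, a gene known to respond to low oxygen and iron shortage, had 11.66, 11.58 and 11.69 with IL-10 and 9.62, 9.46 and 9.54 without, a 4.29-fold rise. The adhesion molecule Nrcam (2.28 ± 0.213) and the guanine deaminase Gda (2.08 ± 0.113) also had unstimulated means under that level. Cav1, the coat protein of caveolae, fell to 7.64, 7.38 and 7.52 with IL-10 against 9.82, 9.26 and 9.30 without (3.85-fold lower). Hpgd, which inactivates prostaglandins, fell to 8.97, 9.16 and 9.09 with IL-10 against 10.92, 10.62 and 10.48 without (3.04-fold lower). The prostaglandin E2 receptor Ptger4 rose 2.35-fold. The DNA-binding protein Hmga2 was 2.37-fold lower, the actin-binding Enc1 2.50-fold and the adhesion receptor Adgre4 2.30-fold. The growth factor receptor Fgfr1 (-1.17 ± 0.154) and the desmosome protein Pkp2 (-1.18 ± 0.142) were called lower with IL-10 means under the background level. The zinc finger factor Egr2 fell to 9.47, 9.21 and 9.37 with IL-10 against 10.67, 10.72 and 10.74 without (2.56-fold lower). Among 48 tested transcription factors 17 rose and 13 fell. Tfec (1.12 ± 0.111), Batf (0.83 ± 0.0923), Cebpd (0.80 ± 0.123) and Ahr (0.79 ± 0.137) rose, and Bhlhe40 fell by 0.88 ± 0.0597. Of 31 alternative activation genes, a programme known from IL-4, 4 rose and 8 fell, beside 12.3% and 15.9% of all tested genes. Arg1 was under the background level, with values of 3.87, 3.54 and 3.79 with IL-10 and 3.71, 3.84 and 3.92 without.

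IL-6 also signals through STAT3, and its arrays (5, with unstimulated replicates 1 to 5 as their controls) share no array with the comparison above, so the difference of the effects could be tested. Of 7154 genes 7 differed (0.0978%), and 236 had an unadjusted p under 0.05, which is less than 5% of the genes tested. In all 7 the IL-10 effect lay below the IL-6 effect, and 6 of them belong to the type I interferon response list. Cxcl10, an interferon-induced chemokine, had 7.84, 7.80 and 8.07 with IL-10 and 7.52, 7.72 and 7.47 in replicates 6 to 8. It had 8.24, 8.19, 8.43, 8.30 and 8.15 with IL-6 and 7.36, 7.16, 6.77, 7.06 and 6.68 in replicates 1 to 5. The effects were 0.33 for IL-10 and 1.26 for IL-6, and both treated groups lay above their controls. Ifit1, which binds foreign RNA, had an IL-10 effect of -0.20 and an IL-6 effect of 0.76 (difference -0.96 ± 0.166, adjusted p = 0.0106). Ifit3, its partner, had -0.86 and 0.16 (difference -1.02 ± 0.200, adjusted p = 0.0288). The antiviral genes Rsad2 (-0.21 and 0.64), Cmpk2 (-0.51 and 0.29) and Oasl2 (-0.74 and -0.04) followed with the IL-10 effect first. Ddx60 (-0.22 and 0.39) is outside the rule for named genes, and was picked with its values in view. All 34 tested genes of the interferon list had a smaller IL-10 effect than IL-6 effect, against 3804 of the 7154 genes, with a median difference of -0.30 against -0.01. Several other lists leaned the same way, among them mitosis (36 of 39 genes), DNA replication (30 of 32), cholesterol synthesis and uptake (18 of 22) and glycolysis (16 of 20), with median differences from -0.04 to -0.13. Against its own controls IL-10 raised 5 of the 34 interferon genes and lowered 6, shares near those of all tested genes (12.3% and 15.9%), with a median of -0.09. The lowered ones included Oas3 (-0.86 ± 0.0924) and Usp18 (-0.76 ± 0.151), and the largest rise was in Ifi27l2a (0.80 ± 0.0709). The count depended on single arrays. With limma it was 0 without IL-10 replicate 1 (486 at an unadjusted p under 0.05), 1 without unstimulated replicate 8, and 2 without IL-10 replicate 2 or unstimulated replicate 6. It was 3 without IL-6 replicate 3 or unstimulated replicate 3 or 5, and 4 without IL-6 replicate 1.

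**Figure D5:**
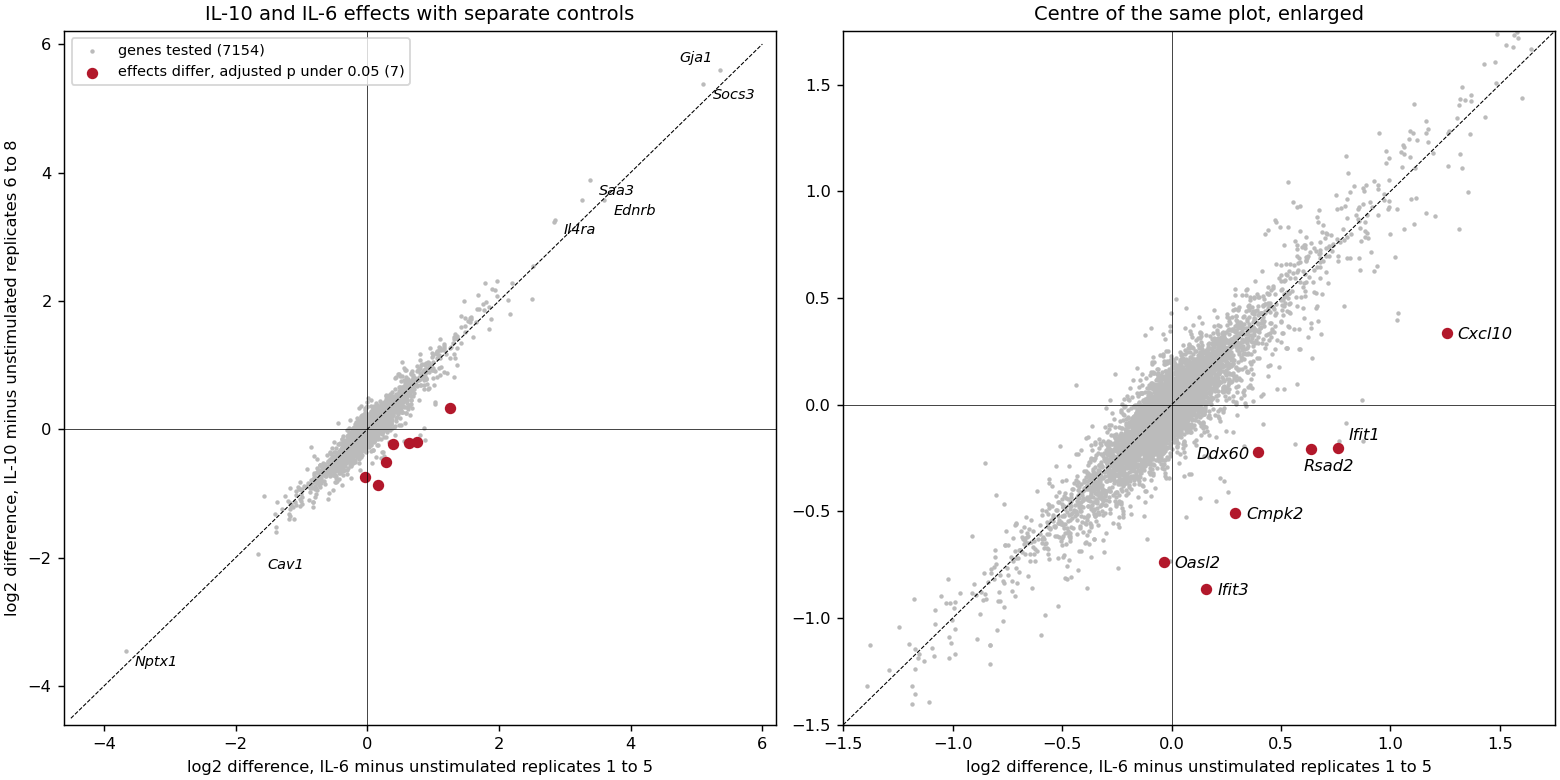
Left, the log2 effect of IL-6 (horizontal axis, against unstimulated replicates 1 to 5) and of IL-10 (vertical axis, against unstimulated replicates 6 to 8) for each tested gene, with a dashed line of equal effects; right, the centre of the same plot enlarged. Red points are the 7 genes whose effects differ, all below the dashed line; Socs3, Gja1 and Saa3 lie near it.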

How the data were processed

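RNA from macrophage cultures was hybridised to Affymetrix 3' arrays of 22690 probe sets. The authors deposited log2 values. Per the submitters' processing notes these come from RMA; GCOS 1.4 is listed there too, with no role. RMA corrects background, normalizes by quantiles and summarises probes. Its version, and whether the 29 arrays were processed as 1 batch, are not given in the sources used here, and no detection calls were used. The values run from 2.45 to 15.13 and were used without further normalization. The number of arrays limits precision, since an array has no read depth.

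The platform annotation names 1 gene for 20393 probe sets. The probe set with the highest mean over the 29 arrays stood for a gene, and 691 probe sets with several genes were left out. A gene entered the test with 3 or more arrays above log2 6.99, which kept 7154 of 12394. One limma 3.58.1 model (R 4.3.3) of all 29 arrays in 7 groups, with 22 residual degrees of freedom, gave moderated two-sided tests with Benjamini-Hochberg adjustment. It was also run on simulated data with independent noise on each array, which cannot check effects shared between arrays. Promoters are RefSeq's (GRCm38.p6).

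Named genes are the 15 largest increases and decreases without overlap, up to 6 called and 3 other genes of each of 42 lists, a fixed set of IL-10, STAT3, cathepsin and stress-response genes, and the genes differing most from IL-6; not all are printed. The members and lists were chosen with earlier results of these data known. Lists are described by counts and medians, without a set test. Alternatives were other controls, other arrays in the fit, normalizations, filters, probe set rules, variance models, thresholds, replicate blocks and leaving out each array.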

Additional observations from a re-analysis of the deposited data

Results flagged for a closer look

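7 genes had an IL-10 effect that differed from the IL-6 effect in a test of the difference itself. On the log2 scale, the IL-10 effect minus the IL-6 effect was -1.02 for Ifit3, -0.96 for Ifit1, -0.92 for Cxcl10, -0.85 for Rsad2, -0.80 for Cmpk2, -0.70 for Oasl2 and -0.61 for Ddx60. The adjusted p-values (limma, Benjamini-Hochberg) ran from 0.0106 to 0.0288. On the IL-10 side, values of Ifit3 were 7.94, 8.24 and 8.14 with IL-10 against 8.996, 8.92 and 8.99 without. On the IL-6 side they were 9.01, 9.04, 8.86, 8.77 and 8.70 with IL-6 against 8.98, 8.82, 8.50, 8.83 and 8.46 without. The test assumes that any difference between the 2 sets of arrays adds on the log2 scale, which was not tested.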

How the results depend on the processing

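Counts of called genes depended on the controls and on the arrays that share the error estimate. Against 2017 called (880 higher, 1137 lower, 119 by at least 1), unstimulated replicates 1 to 5 as controls gave 3144 (1685 higher), with 182 by at least 1. A fit of the 6 arrays alone gave 1197 (573 higher and 624 lower). A fit of the 9 arrays of IL-10, IL-4 plus IL-10 and unstimulated replicates 6 to 8 gave 752 lower, and an adjusted p under 0.01 gave 751 lower. Requiring a difference of at least 1 leaves 119, with 85 higher and 34 lower, and testing every probe set gave 180 by at least 1. Leaving out each array in turn gave 1514 to 2064 called, 651 to 951 higher, 863 to 1249 lower and 111 to 140 by at least 1. The 7 differences from IL-6 became 3 with no filter, 2 with a filter at the 75th percentile, 16 with array weights and 0 at an adjusted p under 0.01, and 0 to 8 with each array left out. With the replicate block, 2033 genes were called on the 9 arrays (917 higher and 1116 lower), 2076 with the labelled number as a random block, and 7 in the comparison with IL-6. With unstimulated replicates 6, 7 and 8 set beside IL-10 replicates 1, 2 and 3, deviations from the group means correlated at 0.01, 0.42 and 0.71, and IL-10 replicate 1 correlated best with unstimulated replicate 7 (0.27). Same-numbered IL-10 and IL-4 plus IL-10 arrays correlated at 0.60, 0.64 and 0.78 and differently numbered ones at -0.48 to -0.07, a hint of shared numbers there that the labels do not state. Against unstimulated replicates 1 to 5, Jak1 (not called otherwise) turned to -0.25 (adjusted p = 0.00458), Scd1 to -0.24 (adjusted p = 0.0876) and Ero1a to -0.0556 (adjusted p = 0.471). Of the 207 named genes called, 163 to 207 stayed called in the same direction across the settings, the lowest under the 75th percentile filter, which removes genes. The causes of the other shifts were not tested. Without detection calls, differences that involve levels under log2 6.99 are limited by background.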

Other observations

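The levels of several cell-type markers differed between the groups in both directions. Of 7 tested B-lineage markers 2 were lower with IL-10, Blnk (-0.58 ± 0.0619) and Cd22 (-0.26 ± 0.0923), and Ighm was not called (-0.15 ± 0.341). With all 8 unstimulated arrays as controls 5 of the 7 were lower, among them Ighm (-0.91, adjusted p = 0.0432) and Ms4a1 (-1.44, adjusted p = 0.0259), and against replicates 1 to 5 there were 6. Ms4a1 was under the background level with IL-10 (4.49, 4.65 and 4.76) and in replicates 6 to 8 (4.66, 4.87 and 4.94). It entered the test through other arrays of the series, so its -1.44 does not describe a difference within the 6 arrays compared. Among T and NK cell markers Cd28 (-0.95 ± 0.223) and Il7r (-0.59 ± 0.0641) were lower and Zap70 (0.34 ± 0.112) higher, the last not called against replicates 1 to 5 (adjusted p = 0.126). Of 4 tested markers of erythroid cells and megakaryocytes, Pf4 and Ppbp were higher and 2 were not called. The log2 of the summed level of that list's 13 measured genes ran from 13.004 to 13.122 with IL-10 and from 11.914 to 12.072 without. Most of that sum was Pf4, at 12.854, 12.914 and 12.754 with IL-10 and 11.762, 11.725 and 11.508 without, so it does not describe the list as a whole. The labelled cells were macrophages, and what these values come from was not tested.

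Oxidative phosphorylation genes moved little against replicates 6 to 8, with 1 of 37 higher (Uqcrq, 0.24 ± 0.0848) and a median of -0.01. Against unstimulated replicates 1 to 5, 20 of the 37 were called higher with a median of 0.12. Glycolysis genes had 1 of 20 higher and 2 lower, and the enzyme gene Pfkfb3 rose by 0.45 ± 0.104. Of 23 genes of fatty acid oxidation and PPAR signalling 2 rose and 8 fell, with the nuclear receptor Pparg at -0.48 ± 0.0543 and the fatty acid binding protein Fabp5 at 0.31 ± 0.0455. On the 6 arrays alone 3 of them were called lower.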
